A study of Saccharomyces cerevisiae with 9 samples.

Results

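The earliest sampled point of recovery from a freeze, 15 min after thawing was complete, was compared with the culture before freezing in budding yeast (Saccharomyces cerevisiae, strain S288C). The genes described are the 2148 of 5189 on the arrays that had a value on all 3 arrays hybridized with RNA of that time point, titled 1st, 2nd and 3rd, and spots of a gene were averaged. Of the other genes, 1394 had a value on 2 of the 3 arrays, 1586 on 1 and 61 on none. The recovering cells had been frozen at -80 °C without cryoprotectant, kept for 1 week, thawed for 25 min in a bath at 30 °C and incubated for 15 min more. The cells before freezing were an unfrozen aliquot of a culture grown at 30 °C in the rich medium YPD to an absorbance (A660) of 1.0, and no unfrozen culture of the later age was among the samples analysed here. Arrays at 30 and 60 min (3 each) gave the later points and part of the estimate of the spread. On every array poly(A) RNA of the recovering cells carried Cy5 and RNA of the cells before freezing Cy3, so a dye effect and an effect of recovery cannot be told apart.

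Each value is a log2 ratio, so 1 stands for a 2-fold difference. The tables do not state its direction, which is read here from the labels as recovering cells over cells before freezing, and every sign given would turn in the other case. In a bulk culture a transcript carried by fewer cells and a transcript less abundant per cell cannot be told apart. Freezing without a cryoprotectant damages membranes and proteins through ice crystals and dehydration, and thawing exposes cells to reactive oxygen. Yeast meets such damage with chaperones driven by the heat shock factor Hsf1, with the general stress programme driven by Msn2 and Msn4, and with redox enzymes driven by Yap1, while transcripts for making ribosomes are commonly lowered under stress. Hsp104 pulls proteins out of aggregates together with Hsp70, and trehalose and glycogen are stress-linked carbohydrate stores.

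A value was present for 2765, 3441 and 5772 of the 6272 spots on the arrays of replicates 1, 2 and 3. Over the spots with a value, the SD of the ratios was 0.63, 0.80 and 0.44. Replicate 1 was on another array platform than replicates 2 and 3. The spot numbers were read as positions in 32 blocks of spots (4 rows by 8 columns, here called subgrids), an order that the labels do not state. The median log2 ratio of a subgrid ran over -0.79 to 0.57 on the array of replicate 1, -0.91 to 1.04 on that of replicate 2 and -0.46 to 0.49 on that of replicate 3, and the subgrid accounted for 31.8%, 52.0% and 27.0% of the variance of the ratios. Across genes, which are not independent replicates, the 3 arrays correlated at 0.15 to 0.30 as deposited and at 0.32 to 0.53 once each subgrid's median was subtracted. Values as deposited are the main result below. Values after that subtraction, an alternative chosen after the data were seen, stand beside them.

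**Figure D1:**
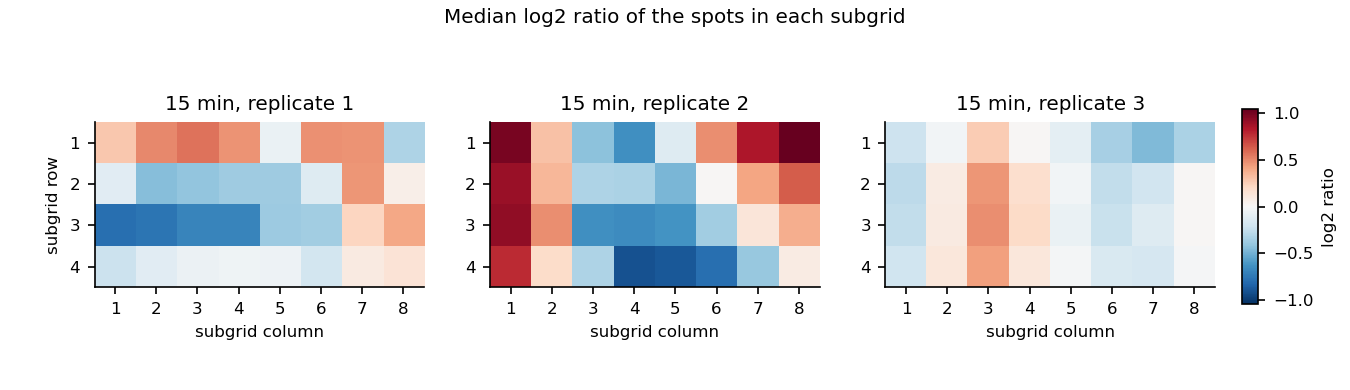
Median log2 ratio (colour) of the spots in each of 32 subgrids, laid out by row and column as read from the spot numbers, for the 3 arrays at 15 min. High and low regions differ between the arrays, with medians between -0.91 and 1.04 on the array of replicate 2.

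As deposited, 18 genes (0.838% of the 2148 tested) were higher 15 min after thawing than before freezing and 7 (0.326%) were lower, by limma's moderated test against a ratio of 0 with Benjamini-Hochberg adjustment over all genes tested, at an adjusted p under 0.05. At an unadjusted p under 0.05 the shares were 7.91% higher and 9.54% lower. With subgrid medians subtracted, 43 genes (2.00%) were higher and 19 (0.885%) lower at the adjusted threshold, and 9.31% and 10.2% at the unadjusted one. The 2 settings shared 15 higher and 3 lower genes. The smallest mean that passed was 1.19 in size as deposited and 0.72 after subtraction. Over all genes tested the mean log2 ratio had a median of -0.05, with 90% of genes between -0.74 and 0.76.

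Large ratios were more often upward. A mean ratio above 1 was found for 46 genes and one below -1 for 17, and 12 genes were above 1 on each of the 3 arrays, against 0 genes below -1 on each. Small shifts ran the other way, with 324 genes (15.1%) above 0 on all 3 arrays and 447 (20.8%) below 0 on all 3. The 25 genes that passed kept their sign in every alternative setting in which they were tested. Each had the same sign on all 3 arrays, so leaving out, weighting or scaling arrays could not have turned it. With 1 array at 15 min left out, 9 of the 25 passed without replicate 1, 5 without replicate 2 and 5 without replicate 3. Of the 25, 14 passed in none of these fits. A fit without an array has fewer values for the mean, so a lost call does not show that a gene leaned on that array. ALD4, with close values of 1.48, 1.55 and 1.41, was among the 14. MSC1, ARO9 and HSP104 passed in all 3 of these fits. With subgrid medians subtracted, SSA4, ARO9 and HSP104 passed in all 3, and MSC1 passed in 1.

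**Figure D2:**
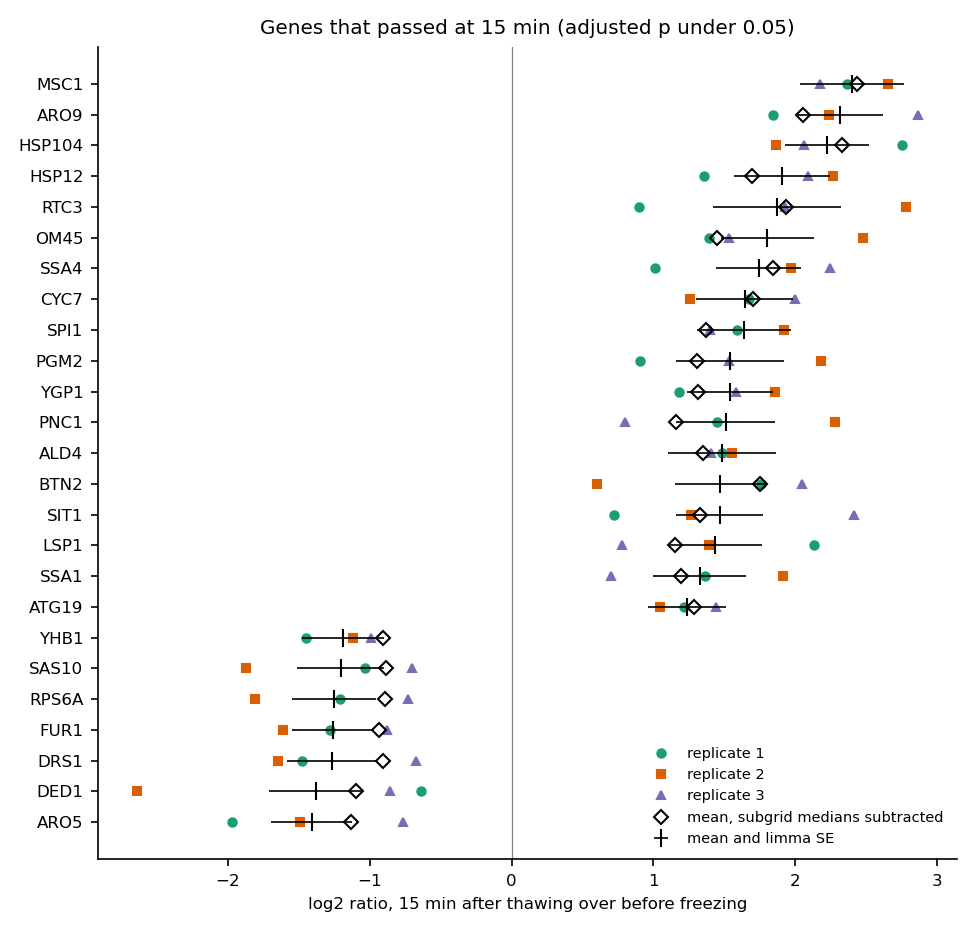
Log2 ratio, 15 min after thawing over before freezing, of the 25 genes that passed: coloured points are the 3 arrays, the black tick and line the mean and limma's standard error, and the open diamond the mean with subgrid medians subtracted. The 18 higher genes lie above 0 and the 7 lower genes below 0 on every array, and all 7 lower genes have a diamond nearer 0 than their mean.

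As deposited, 5 genes of the chaperone lists were higher. HSP104, SSA4 and SSA1 were in the list of Hsp104 and the cytosolic Hsp70s. HSP12 and BTN2 were in that of the small heat shock proteins and sequestrases. The other 4 chaperone lists gave 0 calls. HSP104, the disaggregase, had log2 ratios of 2.75, 1.86 and 2.06 in replicates 1, 2 and 3. Its mean of 2.22 ± 0.29 (SE from limma, n = 3) is 4.67-fold over before freezing (limma, adjusted p = 2.98e-05), and after subtraction it was 2.33. The 3 arrays lay close together and far above 0. SSA4, the stress-induced cytosolic Hsp70, had 1.01, 1.97 and 2.24, a mean of 1.74 ± 0.30 (limma, adjusted p = 0.00147). SSA1, an Hsp70 that is made in unstressed cells too, had 1.36, 1.91 and 0.70, a mean of 1.32 ± 0.33 (limma, adjusted p = 0.0341). Its close relative SSA2 had 0.87, 0.78 and 0.41 and did not pass (limma, adjusted p = 0.211). The sequences of the spots were not used here, so signal shared between near-identical genes such as these cannot be told apart.

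Of the 15 tested genes for Hsp104, the cytosolic Hsp70s and their J-protein partners, these 3 passed and 0 were lower, and the median of the list was 0.03 (-0.03 after subtraction), against -0.05 over all genes tested. SSZ1, an Hsp70 bound to ribosomes, was the lowest at -0.68 (limma, adjusted p = 0.194). The list headed small heat shock proteins and sequestrases had 6 tested members, HSP12, HSP26, BTN2, CUR1, HSP31 and HSP30. It is wider than its name, since it holds HSP31 and the plasma membrane stress protein HSP30, and HSP42 was not on the arrays. All 6 had a mean above 0, with a median of 0.86, and 2 of them passed. HSP12, a small membrane-associated stress protein, had 1.36, 2.27 and 2.09, a mean of 1.90 ± 0.34 (limma, adjusted p = 0.00197). BTN2, which gathers misfolded proteins into deposits, had 1.76, 0.60 and 2.04, a mean of 1.47 ± 0.32 (limma, adjusted p = 0.0145). The array of replicate 2 was the low one for BTN2 as deposited, and after subtraction its 3 values were 1.81, 1.51 and 1.92. HSP26, a small heat shock protein, had only 0.23, 1.05 and 1.50 at this time and did not pass.

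Around Hsp90, the cochaperone STI1, which links it to Hsp70, had 1.22, 1.92 and 0.48 (mean 1.21; limma, adjusted p = 0.0694) and passed only after subtraction (mean 1.00; limma, adjusted p = 0.0487). The other 6 tested genes of that list passed in neither setting, and PPT1, a phosphatase of the Hsp90 system, was at -0.69. In the mitochondrion, the J-protein MDJ1 also passed only after subtraction, with values then of 1.02, 1.51 and 1.11 (limma, adjusted p = 0.0487). The matrix Hsp70 SSC1 was at 0.73 and the exchange factor MGE1 at -0.20, and neither passed. The 11 tested subunits of the cytosolic chaperonin CCT and of prefoldin, which fold newly made actin and tubulin, gave 0 calls in either setting and a median of -0.19, or 0.00 after subtraction. The 8 genes for folding in the endoplasmic reticulum gave 0 calls, the highest being ERO1, the oxidase of disulfide formation, at 1.00 (limma, adjusted p = 0.0642).

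The general stress genes were the group with the highest share of calls. Of 11 tested, 8 passed as higher in each setting, all 11 means were above 0 and the median was 1.64, or 1.37 after subtraction. The 8 include HSP12, given above. The lists overlap, and HSP12, CYC7, SPI1, YGP1 and OM45 each count in another list too. The list of general stress genes was written with results of these data known, so its direction and its share of calls are descriptions. All 25 genes that passed as deposited were in a list, against 903 of the 2148 genes tested. MSC1 had the highest mean ratio of all genes tested, with 2.37, 2.65 and 2.17 and a mean of 2.40 ± 0.37, which is 5.27-fold (limma, adjusted p = 0.000299). RTC3 had 0.90, 2.78 and 1.93, a mean of 1.87 ± 0.45 (limma, adjusted p = 0.0327), and its spread was the widest among the genes that rose. OM45, a protein of the mitochondrial outer membrane, had 1.39, 2.48 and 1.53, and CYC7, the isoform of cytochrome c made under stress and low oxygen, had 1.67, 1.26 and 2.00. SPI1 and YGP1, cell wall proteins made in stationary phase, had 1.59, 1.92 and 1.40, and 1.18, 1.86 and 1.58. PNC1, the nicotinamidase of NAD salvage, had 1.45, 2.28 and 0.80. The adjusted p of these 5 in limma ran from 0.00286 for OM45 to 0.0252 for PNC1. The 3 tested members that did not pass were STF2 (0.94), TMA10 (0.47) and DDR48 (0.42).

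Other passed genes touched membranes, autophagy and carbon use. LSP1, a core protein of the eisosome (a furrow of the plasma membrane), had 2.13, 1.39 and 0.78 (mean 1.43; limma, adjusted p = 0.0242), and 1.15 after subtraction (limma, adjusted p = 0.0592). Its partner PIL1 was at 0.66 and did not pass. ATG19, the receptor that carries aminopeptidase I to the vacuole, had 1.21, 1.05 and 1.44, the lowest passed mean among the higher genes at 1.23 (limma, adjusted p = 0.0182). ALD4, the mitochondrial aldehyde dehydrogenase, had 1.48, 1.55 and 1.41 (mean 1.48; limma, adjusted p = 0.0492), and 1.35 after subtraction (limma, adjusted p = 0.0695). YKL091C was above 1 on all 3 arrays (1.15, 1.06 and 1.30) without passing (limma, adjusted p = 0.0746).

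PGM2, the main phosphoglucomutase, at the branch of glycolysis and glycogen synthesis, had 0.91, 2.18 and 1.53 (mean 1.54; limma, adjusted p = 0.0341), and 1.31 after subtraction (limma, adjusted p = 0.0882). Of the 6 tested genes of glycogen and glucose phosphates, PGM2 was the single call as deposited. UGP1, which makes UDP-glucose for glycogen and trehalose, passed only after subtraction, with 0.50, 1.19 and 1.14 (limma, adjusted p = 0.0487). So did TPS2, the trehalose phosphate phosphatase, which had 1.32, 1.17 and 0.95 as deposited and a mean of 1.07 after subtraction (limma, adjusted p = 0.0455). The glycogen synthase GSY2 was at 0.94 and the glycogen initiator GLG1 at -0.68, and neither passed. The 20 tested genes of glycolysis and fermentation gave 0 calls, although 17 were above 0 and the median was 0.28. GLK1, a glucokinase, was the highest of them at 1.25 (limma, adjusted p = 0.0770). The 11 tested TCA and glyoxylate cycle genes also gave 0 calls, with a median of 0.43 and the peroxisomal citrate synthase CIT2 the highest at 1.15. The respiratory chain and ATP synthase had a median of -0.19, or -0.05 after subtraction, over 27 tested genes and CYC7 as its single call.

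Redox enzymes crossed the threshold only after subgrid medians were subtracted. Of 20 tested peroxidases, thioredoxins, glutaredoxins and glutathione enzymes, 0 passed as deposited, 17 were above 0 and the median was 0.40. After subtraction 3 were higher and the median was 0.46. AHP1, a peroxiredoxin, then had 1.11, 0.84 and 1.40 (limma, adjusted p = 0.0236). TRX1, a cytosolic thioredoxin, had 1.16, 0.57 and 0.76 (limma, adjusted p = 0.0455), and the glutaredoxin GRX2 had 0.28, 1.53 and 1.15 (limma, adjusted p = 0.0487). All 3 were above 0 on every array after subtraction, whereas GRX2 was at -0.16 in replicate 1 as deposited. GRX3, a glutaredoxin of iron sensing, was at -0.63 and did not pass. Of 6 tested aldehyde, ketone and enone reductases, 2 passed after subtraction, both as higher. These were GRE2, a methylglyoxal reductase (mean 1.19; limma, adjusted p = 0.0202), and ZTA1, a quinone reductase (mean 1.18; limma, adjusted p = 0.0459).

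YHB1, the flavohaemoglobin that detoxifies nitric oxide, went the other way. It had -1.45, -1.12 and -0.99, a mean of -1.19 ± 0.29 (limma, adjusted p = 0.0341). After subtraction its mean was -0.91 (limma, adjusted p = 0.0603). It was the single call among 5 tested catalases, superoxide dismutases and haem peroxidases. The cytosolic catalase CTT1 had 2.95 and 1.63 on the arrays of replicates 2 and 3 and no value on the other, so it was not tested.

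Among the lists for amino acids and metals 3 genes passed as deposited, ARO9 and SIT1 as higher and ARO5 as lower. ARO9, the inducible aromatic aminotransferase that starts the breakdown of tryptophan, tyrosine and phenylalanine, had 1.84, 2.24 and 2.86. Its mean of 2.32 ± 0.30 is 4.98-fold (limma, adjusted p = 2.98e-05), or 2.05 after subtraction. ARO10, the decarboxylase of the next step, had 2.09 and 3.32 in replicates 1 and 3 and was not tested. The other aromatic aminotransferase, ARO8, had -0.30, -1.76 and -0.56 and did not pass (limma, adjusted p = 0.147). Among 11 tested genes listed under aromatic amino acid synthesis, ARO5 (YGL117W) was the single call, although its role in that pathway is uncertain here. It had -1.97, -1.49 and -0.77 and a mean of -1.41 ± 0.28, the lowest of all genes tested (limma, adjusted p = 0.00771). After subtraction it was -1.13 (limma, adjusted p = 0.00580). ARO2, the chorismate synthase, was at -0.88 without passing.

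SIT1, a transporter of iron-loaded siderophores, had 0.72, 1.26 and 2.41, a mean of 1.47 ± 0.31 (limma, adjusted p = 0.0107). After subtraction its 3 values were 0.15, 1.69 and 2.15, so the arrays spread further. Of 9 tested iron uptake genes it was the single call, 8 were above 0 and the median was 0.63. The iron permease FTR1 was at 1.10 (limma, adjusted p = 0.0599) and FTH1, a vacuolar iron transporter, at 0.99. FET4, a low-affinity transporter, was at -0.60. The 15 tested copper and zinc genes gave 0 calls and a median of 0.11, or 0.04 after subtraction.

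Genes listed for ubiquitin, Cdc48 and the proteasome were called only after subtraction. Of 20 tested genes for ubiquitin and Cdc48, 0 passed as deposited and 3 after subtraction, all higher. UBI4, the stress-induced polyubiquitin gene, then had 0.82, 1.06 and 0.73 (limma, adjusted p = 0.0394). The deubiquitinase UBP2 had 1.08, 0.86 and 0.69 (limma, adjusted p = 0.0290). UBC8, a conjugating enzyme of the pathway that degrades gluconeogenic enzymes, had 1.48, 0.74 and 1.06 (limma, adjusted p = 0.0485). RPN4, the transcription factor of the proteasome genes, had 0.67, 0.48 and 1.11 as deposited (mean 0.75; limma, adjusted p = 0.192), and a mean of 0.84 after subtraction (limma, adjusted p = 0.0384). It was the single call among the 32 tested genes of the proteasome list. Of these, 20 were above 0 as deposited and 25 after subtraction, with a median of 0.17 in both.

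Besides YHB1 and ARO5, 5 genes were lower as deposited. DED1, a helicase of translation initiation, had -0.64, -2.64 and -0.86, and the array of replicate 2 gave most of its mean of -1.38 ± 0.33 (limma, adjusted p = 0.0311). After subtraction it was -1.10 (limma, adjusted p = 0.0213). DRS1, a helicase of large subunit assembly, had -1.48, -1.65 and -0.67 (mean -1.27; limma, adjusted p = 0.0362). SAS10, a protein of the small subunit processome, had -1.04, -1.87 and -0.71 (mean -1.20; limma, adjusted p = 0.0467). RPS6A, a protein of the small ribosomal subunit, had -1.21, -1.81 and -0.73 (mean -1.25; limma, adjusted p = 0.0256), and its near-identical copy RPS6B had 0.10, -0.13 and -0.28. FUR1, which salvages uracil, had -1.28, -1.61 and -0.88 (mean -1.26; limma, adjusted p = 0.0240). On the array of replicate 3, 6 of the 7 lower genes had their value nearest 0, the exception being DED1. That array also had the smallest SD of ratios over its spots. All 7 lower genes lay in subgrids with low medians, whose mean over the 3 arrays was -0.36 to -0.28 for them, against a median of -0.05 over the genes tested. For the 18 higher genes this mean ran from -0.28 to 0.35, with a median of 0.135, and was below 0 for 7. LSP1, PGM2 and ALD4, which no longer passed after subtraction, had 0.28, 0.23 and 0.135. After subtraction DRS1, RPS6A, FUR1 and YHB1 no longer passed, with adjusted p in limma of 0.0600, 0.0535, 0.0567 and 0.0603.

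The lists for ribosome assembly and for RNA polymerases I and III had medians below 0, although few of their genes passed. Of 48 tested large subunit assembly factors, 45 were below 0 and 33 of these on all 3 arrays. Their median was -0.61, the lowest of the 52 lists, and -0.54 after subtraction. There was 1 call as deposited (DRS1) and 4 after subtraction (MRT4, RSA3, RRS1 and MAK21, between -0.87 and -0.77). The list medians on the 3 arrays were -0.57, -0.76 and -0.50, so each array held the shift. The small subunit processome had 36 tested members, 30 below 0, a median of -0.43 (-0.33 after subtraction) and 1 call, or 2 after subtraction (SAS10 and IMP4). RNA polymerases I and III, which transcribe ribosomal and transfer RNA, had 25 tested genes, a median of -0.40 (-0.32 after subtraction) and 0 calls, or 1 after subtraction, the polymerase III subunit RPC31 (-0.76; limma, adjusted p = 0.0454). The 11 tested genes listed for RNA polymerase II had a median of 0.04, or 0.01 after subtraction, and 0 calls. Subunits shared with polymerase II (RPB5, RPO26, RPB8 and RPB10) were counted only in the list of polymerases I and III. The polymerase II list also held initiation and elongation factors, such as SUA7 and SPT5. Its median beside that of polymerases I and III is thus no comparison of their subunits. Over all genes tested 45.3% were above 0, against 6.25% of the large subunit assembly factors, 16.7% of the processome genes and 20.0% of the polymerase I and III genes.

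The cytosolic ribosomal proteins also had medians below 0. The 50 tested small subunit genes had a median of -0.30 and the 67 large subunit genes -0.35, and after subtraction these were -0.31 and -0.32. Calls were 1 (RPS6A) and 0 as deposited, and 1 (RPS15, -1.02) and 2 (RPL31B, -1.04, and RPL6B, -0.89) after subtraction, all lower. RPL28 was the highest of them, with 0.50, 1.59 and 0.01 and a mean of 0.70 that did not pass. The 48 tested mitochondrial ribosomal proteins had a median of 0.00, or -0.05 after subtraction, and gave 0 calls as deposited. After subtraction MRPL51 was higher in that list (0.90; limma, adjusted p = 0.0202). All 14 tested aminoacyl-tRNA synthetases, which charge transfer RNAs, had a mean below 0 as deposited, against 12 of the 14 after subtraction, with a median of -0.25 (-0.31 after subtraction) and 0 calls in either setting. The 21 tested enzymes of tRNA and rRNA modification had a median of -0.26 and 0 calls.

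Lists for biosynthesis gave few calls. The 27 tested purine and pyrimidine genes had a median of -0.30, with FUR1 lower as deposited and AAH1, the adenine deaminase, lower after subtraction (-0.98; limma, adjusted p = 0.0195). The 34 tested genes of the other amino acid pathways had a median of -0.31 and 0 calls, or 1 after subtraction, LYS12 of lysine synthesis (-0.88; limma, adjusted p = 0.0202). SAM1, an S-adenosylmethionine synthetase, had -1.89, -1.16 and -0.33 (mean -1.13; limma, adjusted p = 0.0513) and passed after subtraction (-1.07; limma, adjusted p = 0.0198). Its paralog SAM2 was at 0.17. ERG3, the sterol desaturase, had -0.65, -1.01 and -0.94 and passed after subtraction (-0.94; limma, adjusted p = 0.0195), as the single call among 17 tested ergosterol genes with a median of -0.08. In the cell wall, DSE2, a protein of daughter cell separation, was lower after subtraction (-0.91; limma, adjusted p = 0.0236), while SPI1 and YGP1 were the higher calls among 32 tested genes with a median of -0.05, or 0.11 after subtraction.

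**Figure D3:**
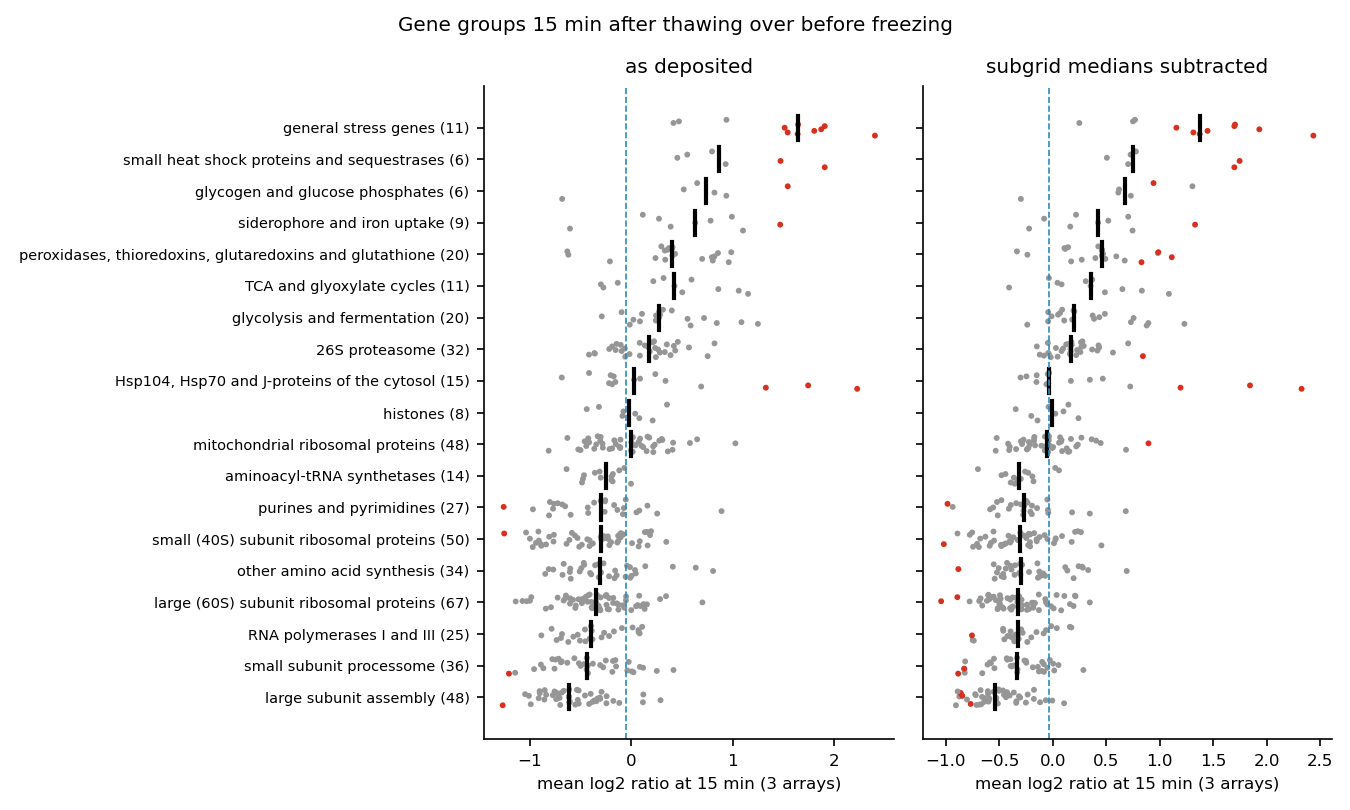
Mean log2 ratio at 15 min of each tested gene in 19 gene groups (number tested in brackets), as deposited on the left and with subgrid medians subtracted on the right; red points passed, the black bar is the group median and the dashed line the median of all genes tested. General stress genes have a median of 1.64 as deposited and large subunit assembly factors one of -0.61, and both keep their side of 0 after subtraction.

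Several groups gave 0 calls in either setting. The 8 histone genes had a median of -0.02 and none was above or below 0 on all 3 arrays. The 7 tested cyclins and cell cycle regulators had a median of -0.20, or 0.01 after subtraction, and the 5 tested DNA damage and repair genes one of 0.18. The 16 tested genes for actin and endocytosis had a median of 0.07, or 0.19 after subtraction. The 12 tested stress regulators and signalling genes had a median of 0.16, or 0.03 after subtraction, the highest being the stress transcription factor CIN5 at 0.76 (limma, adjusted p = 0.159). Coverage was thin in some of these, since 7 of the 29 cyclins and cell cycle regulators and 5 of the 29 repair genes on the arrays had 3 values, against 41.4% of all genes.

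Among genes with a value on only 2 arrays, which were not tested, the highest means were those of ARO10 and CTT1. YNL195C had 1.22 and 2.46 and RTN2 had 1.09 and 2.37 in replicates 1 and 3, and TFS1, an inhibitor of a vacuolar protease, had 1.03 and 2.42 in replicates 2 and 3. The lowest were CIA2 (-1.55 and -0.60), PRM3 (-2.00 and -0.13), SPE2 (-1.84 and -0.28), JLP2 (-1.73 and -0.35) and ICY1 (-1.27 and -0.78), all without a value in replicate 1. For these 5 the array of replicate 2, which had the largest SD of ratios at 15 min, was the lower one. The missing value was on the array of replicate 1 for 952 of the 1394 such genes, on that of replicate 2 for 426 and on that of replicate 3 for 16.

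The earliest point was then set against the later points of recovery by a test of the difference itself, over genes with all 6 values. Between 30 and 15 min, 0 of 1853 genes (0%) differed in either direction by limma, and 52 genes reached an unadjusted p under 0.05. The median standard error of this difference was 0.42, and the smallest adjusted p was 0.972. Between 60 and 15 min, 45 of 1871 genes (2.41%) were higher at 60 min and 63 (3.37%) lower. With subgrid medians subtracted these were 12 (0.641%) and 29 (1.55%). The counts depended on the setting. There were 131 higher and 160 lower with replicate numbers as a block, and 25 and 33 with arrays centred on their median. In some other settings nearly all of the calls ended. With arrays scaled to 1 spread, 0 genes were higher and 1, IZH4, was lower, and on the second platform alone 2 were higher (HSP26 and PIS1) and 6 lower (CIT2, DIP5, IZH2, IZH4, LRP1 and TMA10). DIP5 and TMA10 had not passed with all arrays, and DIP5 and IZH2 were named after their values were seen. None of the genes that passed at 15 min was among these.

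Of the 25 genes that passed at 15 min, 23 could be tested at 60 min and 5 differed. YGP1 had a mean of 4.18 at 60 min and 1.54 at 15 min, a difference of 2.64 ± 0.42 (limma, adjusted p = 0.000690), and 2.08 after subtraction (limma, adjusted p = 0.00998). HSP12 had 1.90, 3.03 and 4.03 at 15, 30 and 60 min, SSA4 had 1.74, 2.54 and 3.21, and SPI1 had 1.64, 2.35 and 3.31. Their differences of 2.12, 1.47 and 1.67 passed as deposited (limma, adjusted p of 0.0130, 0.0384 and 0.0358) and not after subtraction (0.0861, 0.116 and 0.157). ARO5 had -1.41, -1.43 and -3.05, and its difference of -1.64 passed in both settings (limma, adjusted p = 0.0179, and 0.00998 after subtraction). HSP104 had 2.22, 1.46 and 1.42, and its difference of -0.81 did not pass (limma, adjusted p = 0.229). ARO9 had 2.32, 2.40 and 1.50, and its difference of -0.81 did not pass either.

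**Figure D4:**
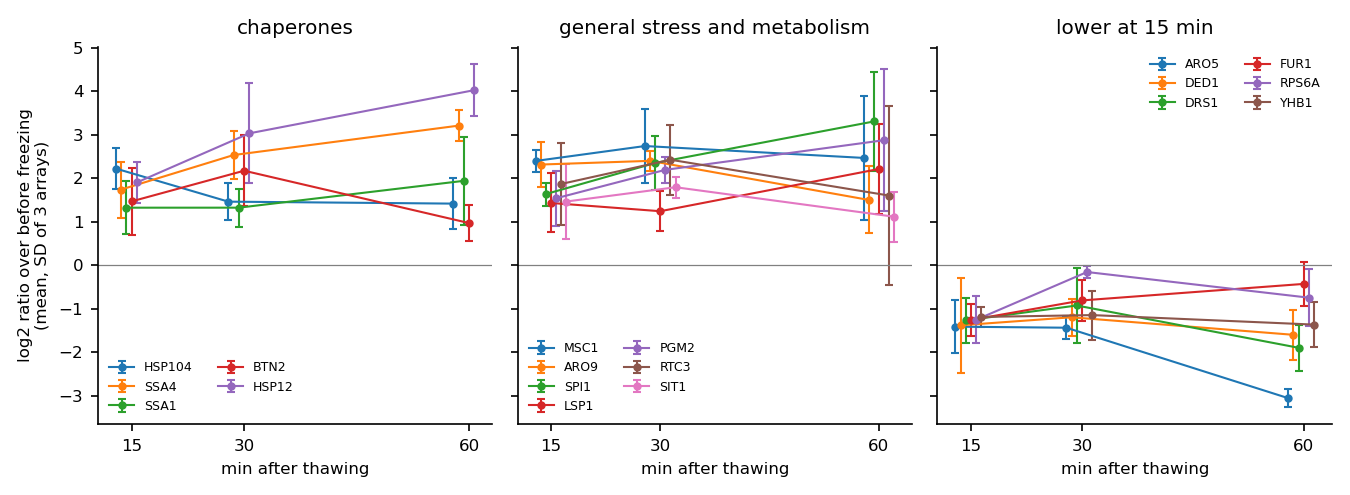
Log2 ratio over before freezing (mean and SD of 3 arrays) at 15, 30 and 60 min after thawing for 18 of the genes that passed at 15 min, with points shifted sideways for clarity. HSP12 reaches 4.03 and SSA4 3.21 at 60 min, HSP104 has its highest mean, 2.22, at 15 min, and ARO5 is lowest, -3.05, at 60 min.

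Other genes differed between 60 and 15 min that had not passed at 15 min as deposited, although RPS15 and RPN4 had passed there after subtraction. HSP26 had 3.99 at 60 min and 0.93 at 15 min, a difference of 3.06 (limma, adjusted p = 0.000201). PIS1, the phosphatidylinositol synthase, had 2.08 at 60 min and -0.65 at 15 min, and RPS15 had 1.34 at 60 min and -0.89 at 15 min. In the other direction IZH4, a membrane protein linked to zinc and sterols, had -2.59 at 60 min and 0.47 at 15 min, a difference of -3.06 (limma, adjusted p = 0.000136). CIT2 had -1.31 at 60 min and 1.15 at 15 min. LRP1, a cofactor of the nuclear exosome, had -2.55 at 60 min and -0.23 at 15 min. DIA1 had -2.32 at 60 min and -0.04 at 15 min, and OLE1, the fatty acid desaturase, had -1.99 at 60 min and 0.27 at 15 min. RPN4 had 0.75, -0.04 and -1.10 at 15, 30 and 60 min, a difference of -1.85 (limma, adjusted p = 0.0130) that also passed after subtraction (-1.60; limma, adjusted p = 0.00998). After subtraction CIT2 and RPS15 no longer passed for this difference (limma, adjusted p of 0.0649 for each).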

How the data were processed

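The authors deposited log2 ratios, which per the labels had been LOWESS-normalized within each array from spots with flag value 0. Image software, background correction and genome build are not stated in the labels or tables read here. Spots were named through the platform annotation, and 5185 of the 5189 genes on both platforms matched RefSeq (assembly R64), used for names only. The 87 genes with several spots were averaged, the 961 unnamed spots stayed out of gene tests, and no value was imputed.

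One limma model (version 3.58.1, R 4.3.3) held all 9 arrays with a mean for each time point, so a gene's spread came from all times. The mean at 15 min was tested against 0 and against the later times, two-sided. The series describes the arrays of a time point as independent biological samples. Whether arrays shared a control culture is not known here, and the test against 0 does not include differences between control cultures. The number of arrays limits the precision.

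The 52 gene lists and the genes described were chosen with earlier results of these data known. Genes named are those that passed, the next by p, the passed members, smallest p values and largest opposite member of each list, genes beyond 1 on all 3 arrays, the highest and lowest on 2 arrays, and the largest later differences. A few others (such as SSA2, RPS6B, SAM2, PIL1, MGE1, TMA10 and DDR48, and members called only after subtraction) were named after their values were seen. Alternatives were other arrays, blocks, scalings, filters and positional centring. Promoter sequences were not used here.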

Additional observations from a re-analysis of the deposited data

Results flagged for a closer look

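The difference between 60 and 15 min (log2, limma, adjusted p under 0.05) marked these genes among those named. Higher at 60 min were HSP26 (3.06), PIS1 (2.74), YGP1 (2.64), RPS15 (2.23), HSP12 (2.12), COX5B, a cytochrome oxidase subunit (1.83), SPI1 (1.67), ERG3 (1.60), SSA4 (1.47), VTC1, of polyphosphate synthesis (1.40), and RPS24B (1.27). Lower at 60 min were IZH4 (-3.06), IZH2 (-2.07), CIT2 (-2.46), LRP1 (-2.32), DIA1 (-2.29), OLE1 (-2.26), YHR054C (-1.88), RPN4 (-1.85), ALD5, a mitochondrial aldehyde dehydrogenase (-1.82), SSC1 (-1.70), ARO5 (-1.64), NIP7, a large subunit assembly factor (-1.59), RSA3, also of that assembly (-1.58), and HSP30, a plasma membrane stress protein (-1.58).

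With every spot tested on its own, 1 spot without a gene symbol, of 75 such spots tested, was lower at 15 min than before freezing. With subgrid medians subtracted, 0 of the 75 passed.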

How the results depend on the processing

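Counts of higher and lower genes at 15 min, 18 and 7 as deposited, were 38 and 10 with the 15 min arrays alone, 35 and 16 with arrays scaled to 1 spread, 43 and 19 with subgrid medians subtracted, 40 and 22 with local medians (15 by 15 spots) subtracted, and 32 and 17 with every spot on its own after subgrid subtraction. Lower genes numbered 0 on the second platform alone, 2 with platform as a block and 2 with arrays centred. With 1 array at 15 min left out in turn, 5 to 11 were higher and 0 to 3 lower, and after subgrid subtraction 3 to 9 and 0 to 1. Genes higher and lower at 60 than at 15 min, 45 and 63, were 2 and 6 on the second platform alone, 25 and 33 centred, 0 and 1 scaled, 12 and 29 with subgrid medians and 13 and 26 with local medians subtracted. With 1 array at 15 min left out they were 10 to 20 and 19 to 43, and after subgrid subtraction 0 to 6 and 1 to 7. All arrays at 60 min stayed in these fits. Counts between 30 and 15 min were 0 in every alternative run. The 25 genes that passed kept their sign in every alternative that tested them. Leaving out, weighting or scaling arrays could not have turned it, since each had the same sign on every array at 15 min. Of 172 named genes that did not pass, 26 changed sign in at least 1 alternative, as did the medians of 21 of 52 lists.

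The labels share replicate numbers between times. Deviations of same-numbered arrays correlated at 0.02 to 0.53, over 0.1 in 7 of 9 pairs, and those of other pairs at -0.61 to 0.30. The rule asked for over 0.1 in every pair, so the fit without the block was kept, although the numbers may mark something shared. Same-numbered arrays also shared a platform. With the replicate block, 88 genes were higher and 73 lower at 15 min, and 131 and 160 at 60 than at 15 min. After subgrid subtraction these were 112 and 65, and 32 and 84. The block takes differences between replicates out of the spread. A test of a mean against 0 needs those differences, so the 15 min counts with the block can be too high. Arrays with few values limit what could be tested, and 3041 of 5189 genes had no test at 15 min.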

Other observations

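Genes outside the lists that passed at 15 min only after subgrid medians were subtracted were picked after their values were seen. Higher were NQM1, a transaldolase paralog (1.46), FMP23 (1.46), YHR054C (1.38), YDL124W (1.16), GAD1, the glutamate decarboxylase (1.14), YHR138C (1.12), YMR090W (1.04), CPR1, the cytosolic cyclophilin A (0.98), YET1 (0.90), FPT1 (0.88), MRX9 (0.78) and UFO1, an F-box protein (0.72). SPG4 (1.47) was higher too. Lower were YML119W (-1.01) and PCL5, a cyclin of the kinase Pho85 that acts on Gcn4 (-0.89). GAD1 and UGA2, the succinate semialdehyde dehydrogenase (0.95), which was in a list, catalyse steps of glutamate breakdown through GABA. The adjusted p of these genes in limma lay between 0.0195 and 0.0487. GAD1 had 0.66, 1.37 and 1.37 in the 3 replicates and NQM1 had 1.34, 1.48 and 1.55.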
